A study of Mus musculus with 3 samples.

Results

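The genes described here are 6 transcription factors of the hair follicle, namely the homeobox genes Msx1, Msx2, Dlx2, Dlx3 and Hoxc13 and the forkhead gene Foxn1. They were taken by symbol from the gene list of the deposited count matrices, and all 6 were found among 31053 listed genes. The series holds single-cell RNA libraries of whole skin from C57BL/6 mice at post natal 7 weeks, from a study of hair growth. Each agent has 1 library, which are metformin, a drug that lowers blood glucose, control, and Shi-Bi-Man, whose expression was not analysed here. The labels give neither the dose and route of metformin nor what the control mice received. They also do not say how many mice a library pools. No test between agents was possible, so differences between the libraries are given as values, and agent, mouse, hair cycle stage and library preparation cannot be told apart.

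Hair grows from the matrix, a pool of dividing keratinocytes that surrounds the dermal papilla at the base of the follicle. Daughters of these cells leave the cycle and become the hair shaft or the inner root sheath, which moulds the shaft. Msx2 and Foxn1 act in shaft differentiation, Hoxc13 regulates hair keratin genes, Dlx3 is needed for both hair and the outer epidermis, and loss of Foxn1 gives the nude mouse. Msx1 and Dlx2 are best known from teeth, limbs and the face, and both are also expressed in hair follicles.

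In GENCODE M21 on the mouse build GRCm38, Msx1 lies on chromosome 5 from 37820485 to 37824583 and Msx2 on chromosome 13 from 53466884 to 53473074. Dlx2 lies on chromosome 2 from 71543408 to 71546754, Dlx3 on chromosome 11 from 95120119 to 95125296, and Hoxc13 on chromosome 15 from 102921103 to 102928814. Foxn1 lies on chromosome 11 from 78357577 to 78386558. No other annotated gene overlaps any of the 6, so their counts are not shared with an antisense or nested gene. RefSeq promoters matched 4 of the 6, Msx1, Msx2, Dlx2 and Foxn1. The Msx2 window lies inside the longer GENCODE gene and is not printed. The 250 bases before the RefSeq start of Msx1 (chr5:37824586-37824835), Dlx2 (chr2:71546755-71547004) and Foxn1 (chr11:78386609-78386858) are shown because Msx1 and Dlx2 were high in hair matrix-like cells and Foxn1 was not. All are from GRCm38.p6, on the minus strand, read 5′ to 3′. Capitals mark a match on either strand to CCAAT or to TAATT, a core that homeodomains bind.
Msx1: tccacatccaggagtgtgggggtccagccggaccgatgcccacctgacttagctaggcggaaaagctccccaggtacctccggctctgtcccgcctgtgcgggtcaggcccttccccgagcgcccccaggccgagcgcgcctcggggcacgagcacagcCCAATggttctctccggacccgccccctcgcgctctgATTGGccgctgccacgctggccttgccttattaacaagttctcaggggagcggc
Dlx2: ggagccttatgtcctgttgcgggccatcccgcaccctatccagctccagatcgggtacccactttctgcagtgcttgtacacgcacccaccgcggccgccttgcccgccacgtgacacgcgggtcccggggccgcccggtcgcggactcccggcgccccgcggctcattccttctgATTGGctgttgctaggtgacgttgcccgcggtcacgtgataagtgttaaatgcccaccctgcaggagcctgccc
Foxn1: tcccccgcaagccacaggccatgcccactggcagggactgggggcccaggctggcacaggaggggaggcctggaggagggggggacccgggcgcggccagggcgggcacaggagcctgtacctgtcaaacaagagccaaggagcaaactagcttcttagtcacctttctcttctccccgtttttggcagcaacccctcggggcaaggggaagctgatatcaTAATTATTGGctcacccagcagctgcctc
CCAAT matched in all of the windows shown, with 2 matches for Msx1, 1 for Dlx2 and 1 for Foxn1, and it occurs in 33.8% of 32851 promoter windows of the same length. Of the windows shown, TAATT matched in that of Foxn1, at 2 positions that overlap each other on opposite strands and run into the CCAAT match, and it occurs in 25.0% of all windows. CTTTGA (TCF/LEF) and GACGC (a Foxn1 core), found in 13.8% and 22.6% of all windows, were in none of the 3 shown. The Msx2 window was searched as well and held 3 matches to TAATT, 1 to CCAAT, 2 to GACGC and none to CTTTGA. These matches are a description of letters and not of binding.

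Before filtering, the metformin library had 12092 barcodes and 92341365 unique molecular identifiers (UMIs, each a captured RNA molecule), and the control library had 12108 barcodes and 71345558 UMIs. They shared 41 barcodes. After filtering and removal of doublets, 8827 metformin cells and 9688 control cells were left, with median depths of 5568 and 3557 UMIs. The clustering used none of the 6 genes, so their levels in a cluster were not used to form it. Cluster 6, led by Krt35, Krtap8-1 and S100a3, carried markers of both hair matrix and shaft and passed for neither name alone, so it is called hair matrix and shaft-like. It held 822 metformin cells and 17 control cells, and inner root sheath-like cells formed cluster 29, with 83 metformin cells and 1 control cell. Together, as hair lineage-like cells, they were 10.3% (9.63 to 10.9) of metformin cells and 0.186% (0.110 to 0.293) of control cells. Such clusters are nearly of 1 library, and what they hold cannot be told apart from that library. Ranges in brackets here and below are exact 95% intervals that cover counting error only.

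In the metformin library, 5 of the 6 genes were concentrated in these hair lineage-like cells, and Foxn1 was not. Levels are given as UMIs per 1000000 UMIs of a cell class (CPM). Each UMI counts a molecule by its 3′ end, so values were not divided by gene length. In the 905 metformin cells of the class, Msx2 stood at 263 CPM (251 to 275) and Dlx3 at 248 (236 to 260), and these neighbours in the order overlap. Hoxc13 followed at 163 CPM (154 to 173), Msx1 at 142 (133 to 151) and Dlx2 at 85.2 (78.5 to 92.5). Foxn1 stood at 6.30 CPM (4.56 to 8.48). These cells held 89.8% of the kept metformin UMIs of Dlx3, 87.9% of those of Msx1, 86.6% for Msx2, 85.8% for Hoxc13 and 84.3% for Dlx2, but 26.4% of those of Foxn1.

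**Figure D1:**
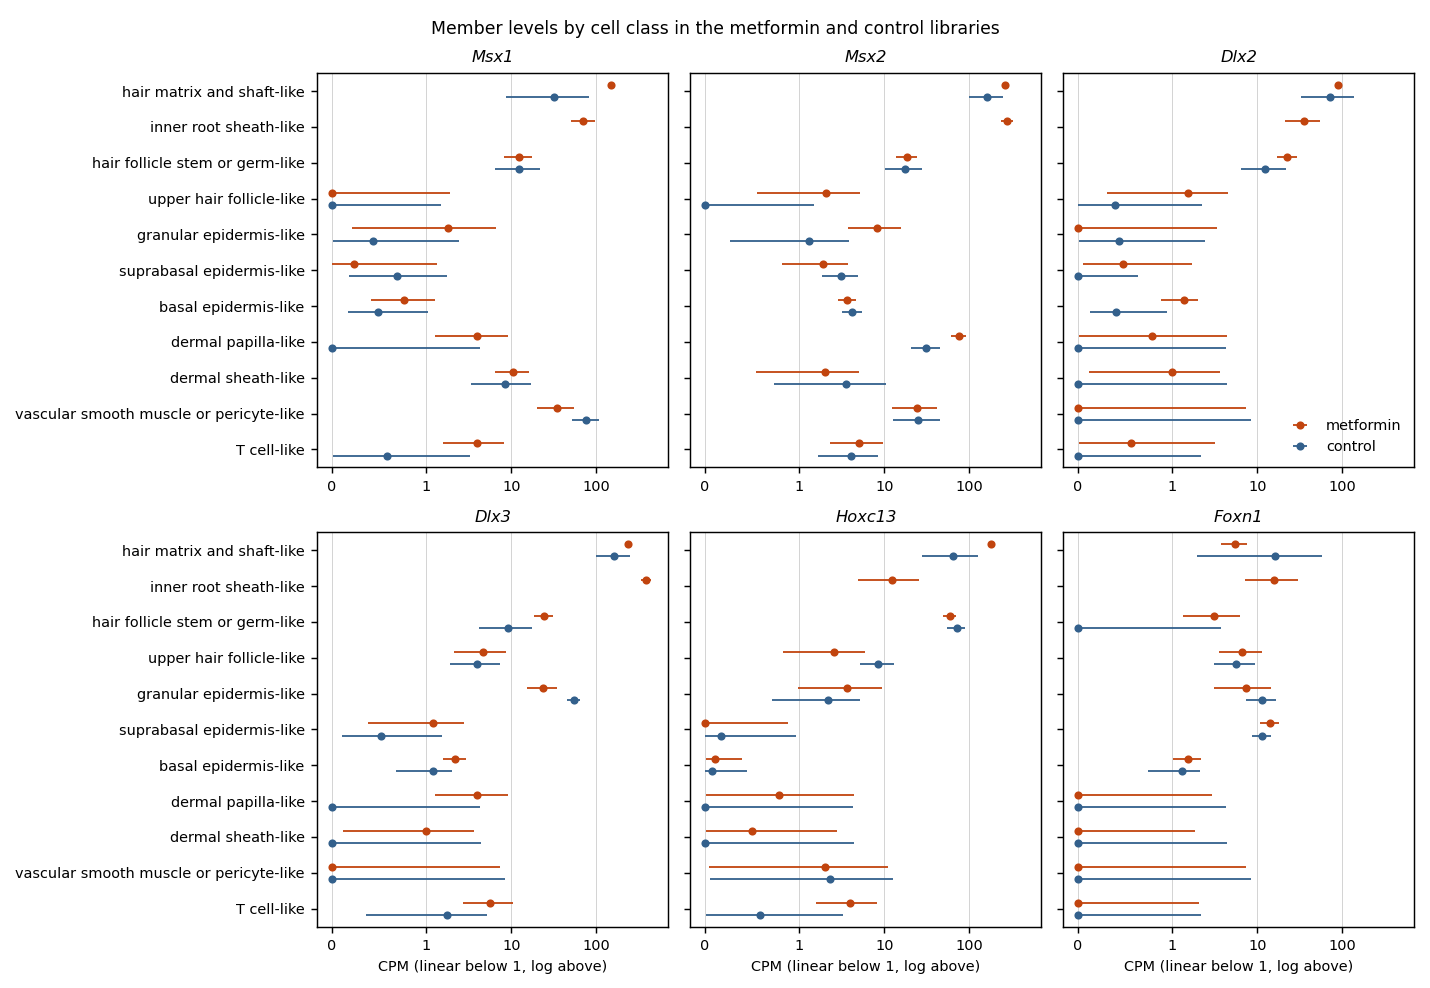
Level of each gene (CPM, linear below 1 and logarithmic above) in 11 cell classes, with metformin above control. Points are sums over the cells of a class, bars are exact 95% Poisson intervals, and the single inner root sheath-like control cell is not drawn. In metformin the homeobox genes are highest in the hair matrix and shaft-like or inner root sheath-like rows, whereas Foxn1 is present in suprabasal and granular cells of both libraries. With the wider filter described below, which is not drawn, the 26 granular metformin cells held 0 Foxn1 UMIs. That filter was clustered anew, so its granular class is another and smaller set of cells.

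Per cell, Dlx3 and Msx2 were detected most widely, and their order depended on depth. A UMI of Dlx3 was present in 76.5% (73.6 to 79.2) of the metformin hair lineage-like cells and one of Msx2 in 71.6% (68.5 to 74.5), and these intervals overlap. The shares were 48.8% (45.5 to 52.2) for Msx1, 43.1% (39.8 to 46.4) for Hoxc13, 36.8% (33.6 to 40.03) for Dlx2 and 3.76% (2.62 to 5.21) for Foxn1. The median depth of these cells was 7948 UMIs. In metformin T cell-like cells, which should lack these genes, the largest share was 1.17% (0.507 to 2.29), for Dlx3, at a median depth of 2245 UMIs, and no cell of 683 had a Foxn1 UMI. With every cell thinned to 1500 UMIs, the hair lineage-like shares were 31.1% for Msx2, 29.8% for Dlx3, 19.3% for Hoxc13, 16.8% for Msx1, 10.4% for Dlx2 and 0.896% for Foxn1, against at most 0.337% in the metformin T cell-like cells.

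The 18 control cells of the class also carried these genes. They held 22 UMIs of Msx2, 23 of Dlx3, 9 of Dlx2, 8 of Hoxc13, 4 of Msx1 and 2 of Foxn1. As levels these were 162 CPM (101 to 245) for Msx2, 169 (107 to 254) for Dlx3, 66.2 (30.3 to 126) for Dlx2, 58.9 (25.4 to 116) for Hoxc13 and 29.4 (8.02 to 75.4) for Msx1. Per UMI of the class, the metformin over control ratio was 1.29 (0.673 to 2.83) for Dlx2 and 1.46 (0.972 to 2.31) for Dlx3, intervals that include 1. It was 1.62 (1.07 to 2.60) for Msx2, 2.78 (1.40 to 6.45) for Hoxc13 and 4.83 (1.88 to 17.8) for Msx1. Foxn1 had 0.428 (0.111 to 3.65) on 2 control UMIs, where 24.2% of genes were at least 2-fold lower. Hoxc13 and Msx1 were thus at least 2-fold higher, as were 8.13% of 10158 genes in this class, with a median log2 ratio over all genes of -0.213. For these values of all genes a control count of 0 was set to 3, above the 2 control UMIs of Foxn1. A gene found only in metformin cells could thereby be counted as at least 2-fold lower. How much of the 24.2%, the 8.13% and the median comes from this setting was not tested. The Msx1 ratio rests on 4 control UMIs, and a wider filter on cells, described below, put it at 1.96 (1.35 to 2.96), under 2-fold, and that of Hoxc13 at 3.54 (2.06 to 6.66). Hair shaft markers, 12 in all, summed to 821 CPM in these metformin cells, with 2 of them at 0, and to 103 CPM in these control cells, with 10 at 0, so the class does not hold the same mix of cells in both libraries. The 7 fibroblast markers summed to 560 CPM in the metformin cells and 125 CPM in the control cells, with 3 at 0 in control. The part of these differences in the ratios was not tested.

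Within the hair lineage-like cells of the metformin library the 6 genes did not all follow each other, although Msx1 and Msx2 shared their highest sub-cluster. The cells were split into 9 sub-clusters, again without using these genes, and the sub-clusters hold 48 to 176 metformin cells and at most 5 control cells each. Hoxc13 varied most. It reached 625 CPM (554 to 702) in the 61 cells led by S100a3, Krt36 and Krt35, genes of the hair shaft, where 95.1% of cells had a UMI. It was 467 CPM (391 to 553) in the 48 cells led by Csta1 and Foxq1 with Krt75, and 352 (313 to 395) in the 112 cells led by Dlk2 and Bmper. In the 97 cells led by the inner root sheath genes Tchh, Krt71 and Krt73 it was 6.25 CPM (1.70 to 16), from 4 UMIs. The shaft-led and inner root sheath-led intervals are far apart.

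Dlx3 and Msx2 were present in all of these states. Dlx3 was highest in the inner root sheath-led cells, at 381 CPM (335 to 432), and next in the Dlk2-led cells, at 337 (299 to 379), and these intervals overlap. Its lowest value was 167 CPM (136 to 203), in the 82 cells led by Shh, the hedgehog ligand of the growing follicle. Msx2 was highest in the Dlk2-led cells, at 435 CPM (391 to 482), then in the Csta1-led cells, at 363 (297 to 440), and in the shaft-led cells, at 324 (274 to 381). The range of Msx2 over the sub-clusters was 157 to 435 CPM.

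Msx1 and Dlx2 were both low in the shaft-led and inner root sheath-led cells. Msx1 was highest in the Dlk2-led cells, at 243 CPM (211 to 279), and in the 168 cells led by histone genes and Ube2c, which mark DNA synthesis and division, at 220 (194 to 248). It was 64.0 CPM (42.9 to 91.9) in the shaft-led cells and 73.4 (54.0 to 97.6) in the inner root sheath-led cells, and its lowest value was 57.7 (41.6 to 77.9), in the 87 cells led by Pdk4, Thbs1 and Has2. Dlx2 was highest in the Shh-led cells, at 165 CPM (134 to 201), and in the Thbs1-led cells, where Msx1 was lowest, at 124 (99.4 to 152). Its lowest value was 19.9 CPM (9.08 to 37.7), from 9 UMIs, in the shaft-led cells. Thus the shaft-led cells had the highest Hoxc13 and the lowest Dlx2 of the 9 sub-clusters.

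Foxn1 was near 0 in most of these states and present in 3 of them. It stood at 33.1 CPM in the shaft-led cells, from 15 UMIs, at 21.5 CPM in the 74 cells led by Fez1 and Krt79, from 13 UMIs and with Foxn1 itself among the leading genes, and at 15.6 CPM in the inner root sheath-led cells, from 10 UMIs. The other 6 sub-clusters held 5 Foxn1 UMIs together, and the Shh-led and Thbs1-led cells held 0.

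**Figure D2:**
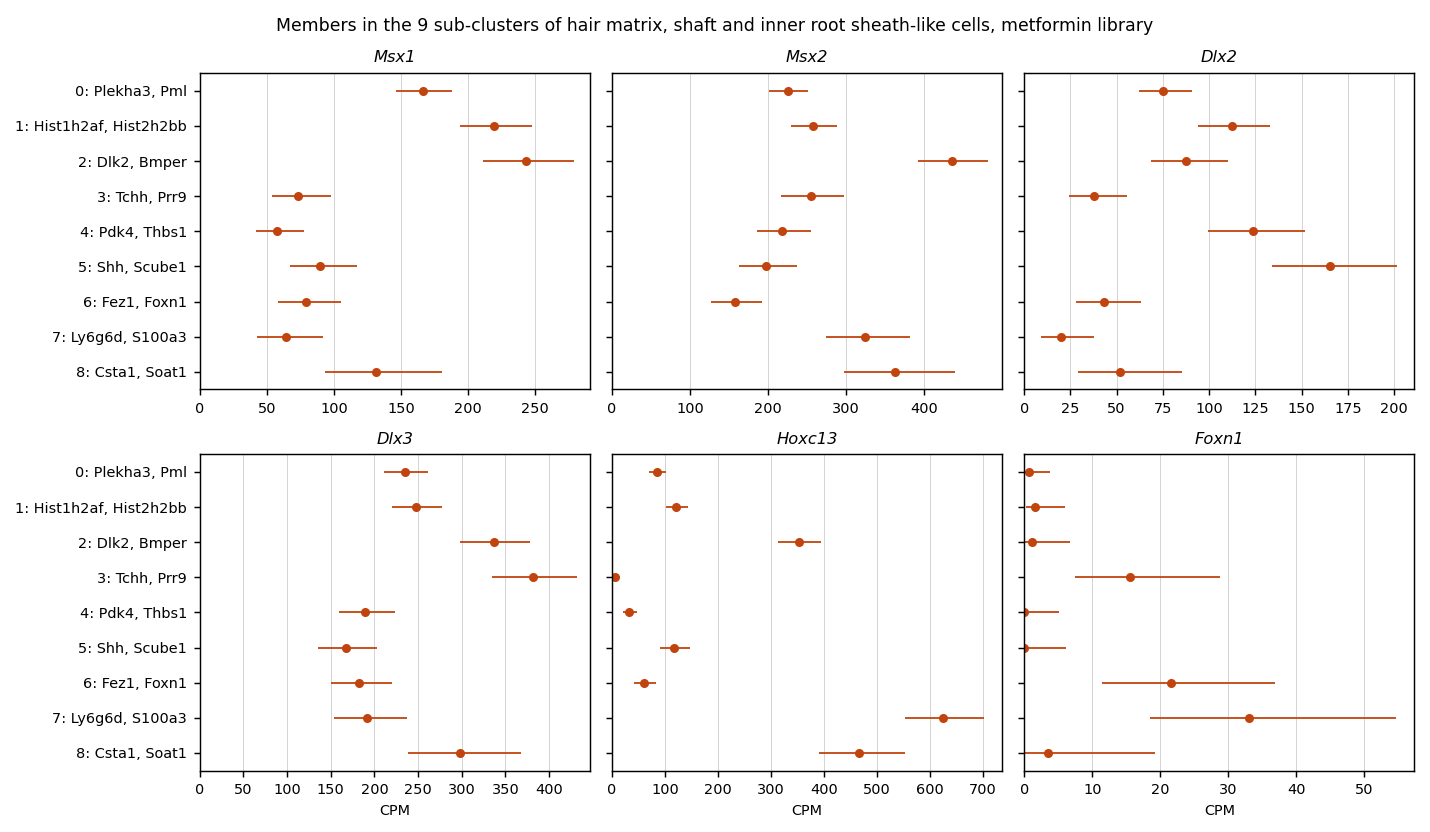
Level of each gene (CPM) in the 9 sub-clusters of hair lineage-like cells of the metformin library, each named by 2 of its leading genes. Points are sums over cells and bars are exact 95% Poisson intervals. Hoxc13 runs from 6.25 CPM in the Tchh-led cells to 625 CPM in the S100a3-led cells.

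The limit of 3000 genes per cell removes deep cells, and most metformin UMIs of the 5 homeobox genes lie in barcodes outside the kept cells. Of the metformin UMIs of each gene, the kept cells held 37.0% for Msx1, 39.3% for Msx2, 31.4% for Dlx2, 39.5% for Dlx3, 47.3% for Hoxc13 and 56.2% for Foxn1. A wider filter has no upper limit on genes and allows more mitochondrial RNA, and its use for single classes and sub-clusters was added after seeing the data. Its cells were clustered and named anew, so a class of that filter need not hold the same cells. This filter gave 1584 metformin cells and 36 control cells of the hair lineage-like class. There Msx2 stood at 238 CPM in metformin cells and 123 in control cells, Dlx3 at 216 and 143, and Hoxc13 at 118 and 33.3. Msx1 stood at 141 CPM in metformin cells and 71.7 in control cells. Dlx2 turned round, at 97.3 CPM in metformin cells and 115 in control cells, a ratio of 0.844 (0.628 to 1.16). The 122 shaft-led metformin cells of that filter held Hoxc13 at 453 CPM (414 to 495) and Foxn1 at 20.8 (13.2 to 31.2), and the 128 inner root sheath-led cells held Hoxc13 at 26.3 (17.2 to 38.6).

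Some single cells carried several of the 6 genes. At 1500 UMIs per cell, 66.9% (63.7 to 69.9) of 893 metformin hair lineage-like cells had a UMI of at least 1 gene, and 8.17% (6.46 to 10.2) had at least 3. Of the 17 control cells of the class, 11 had at least 1 gene and 1 had 3. Among other keratinocyte-like cells, 3.24% (2.71 to 3.84) of metformin cells and 3.13% (2.54 to 3.81) of control cells had at least 1, and none had 3. In T cell-like cells the shares with at least 1 were 1.01% in metformin and 0.705% in control.

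**Figure D3:**
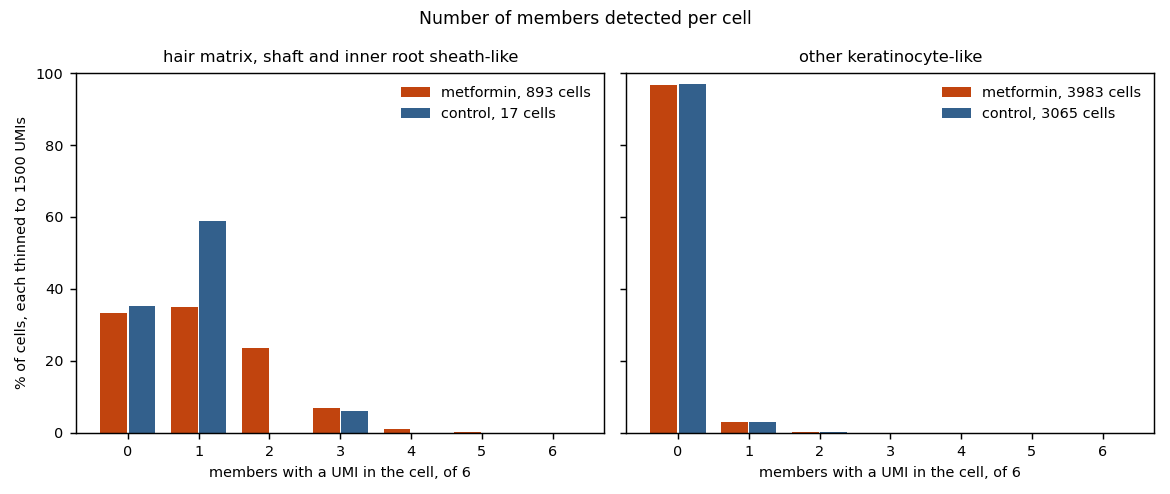
Share of cells (%) by the number of the 6 genes with a UMI, each cell thinned to 1500 UMIs, in metformin and control cells. In hair lineage-like metformin cells 66.9% had at least 1 gene, against 3.24% of the other metformin keratinocyte-like cells.

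Of the thinned metformin hair lineage-like cells, those with a Hoxc13 UMI less often had a UMI of a listed cell division gene, 36.6% (29.4 to 44.3) against 53.8% (50.1 to 57.5) of cells without one. For the other 4 homeobox genes the intervals of cells with and without a UMI overlapped. The shares were 48.7% with and 50.9% without for Msx1, 45.0% and 53.0% for Msx2, 53.8% and 50.1% for Dlx2, and 50.4% and 50.6% for Dlx3. Cells of 1 library are not replicates, so no test was made. Over the 9 sub-clusters the proliferation marker Mki67 gave another order than Hoxc13. Mki67 stood at 22.1 CPM in the shaft-led cells, 6.92 in the Csta1-led cells and 40.7 in the Dlk2-led cells, which had the highest Hoxc13, but also at a low 54.7 CPM in the inner root sheath-led cells, which had the lowest. The histone-led cells, set apart by division genes, had Mki67 at 363 CPM and Hoxc13 at 121 CPM.

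Across all keratinocyte-like cells, 5 of the 6 genes were at least 2-fold higher in the metformin library, where 8.93% of 13331 genes measured there were. Msx1 stood at 28.1 CPM in metformin cells and 1.11 in control cells, a ratio of 25.3 (17.4 to 38.2). Dlx2 stood at 18.5 and 1.11 CPM in metformin and control cells, a ratio of 16.6 (11.4 to 25.2). The ratio was 8.29 (6.80 to 10.2) for Hoxc13 and 6.97 (5.98 to 8.15) for Dlx3. Foxn1 stood at 4.44 CPM in metformin cells and 5.01 in control cells, a ratio of 0.887 (0.698 to 1.13), and at 0.625 (0.526 to 0.743) with the wider filter. Over all genes the median log2 ratio was 0.1253, and 3.30 over the 6. At least 8-fold higher levels were found for 4 of the 6, Msx1, Msx2, Dlx2 and Hoxc13, and for 0.968% of all genes.

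Without the hair lineage-like cells, 1 of the 6 genes was at least 2-fold higher, against 3.6% of 12915 genes. This was Dlx2, at 2.96 CPM in metformin cells and 0.759 in control cells, a ratio of 3.90 (2.35 to 6.78). Of these Dlx2 UMIs, 57 of 87 in metformin and 12 of 19 in control lay in the hair follicle stem or germ-like cells described below. There the Dlx2 ratio was 1.82 (0.965 to 3.72), and in basal epidermis-like cells it was 3.36 (1.26 to 11.2). For the other genes, the ratio without hair lineage-like cells was 1.70 (1.02 to 2.90) for Msx1, 1.39 (1.08 to 1.81) for Hoxc13 and 1.28 (0.973 to 1.68) for Msx2. Dlx3 turned to the other side, at 4.93 CPM in metformin cells and 6.396 in control cells, a ratio of 0.771 (0.612 to 0.972). The levels that remain are low, and T cell-like cells of the metformin library held 5.65 CPM of Dlx3, 5.08 of Msx2 and 3.95 of Msx1 and of Hoxc13, beside 1.76, 4.12, 0.588 and 0.588 CPM in the control library. How far free RNA makes up these low levels was not tested.

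**Figure D4:**
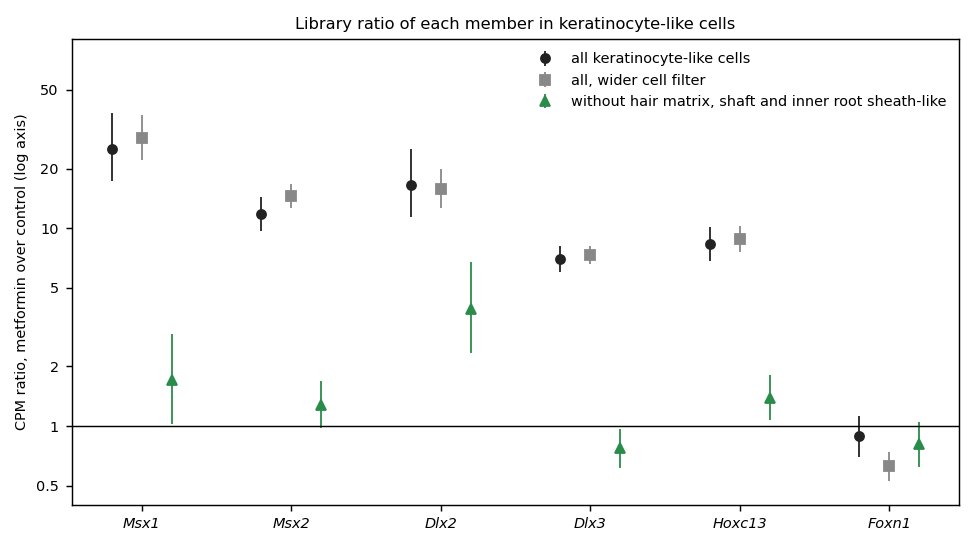
Ratio of CPM, metformin over control (log axis), for each gene in all keratinocyte-like cells, in all under the wider filter, and without hair lineage-like cells. Bars are exact 95% intervals. The ratio of Msx1 is 25.3 with these cells and 1.70 without them, and Foxn1 lies near or below 1 throughout.

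Of the 6 genes, Hoxc13 was the highest in cluster 9, with 492 metformin and 193 control cells. The cluster was named from markers of follicle stem cells or germ (stem or germ-like below), but it also held cells with markers of other follicle parts. Hoxc13 stood at 58.5 CPM (49.5 to 68.7) in metformin and 70.8 (55.1 to 89.6) in control, and a UMI was in 21.1% and 23.8% of cells. The ratio was 0.827 (0.617 to 1.12). Dlx3 stood at 24.3 CPM in metformin and 9.23 in control, a ratio of 2.64 (1.30 to 6.04) from 62 and 9 UMIs, and 9.58% of 9443 genes were at least 2-fold higher in this class. Msx1 stood at 12.2 and 12.3 CPM and Msx2 at 18.5 and 17.4 CPM in metformin and control, ratios of 0.989 (0.494 to 2.11) and 1.06 (0.597 to 1.97). Dlx2 stood at 22.4 CPM in metformin and 12.3 in control, a ratio of 1.82 (0.965 to 3.72). Foxn1 had 8 UMIs in metformin and 0 in control, which allows up to 3.78 CPM. With the wider filter Msx2 stood at 42.4 CPM in 717 metformin cells and 16.045 in 235 control cells, Dlx3 at 51.6 and 11.1, and Hoxc13 at 61.7 and 74.1. The ratio was then 2.64 (1.76 to 4.12) for Msx2, 2.13 (1.43 to 3.29) for Dlx2 and 4.65 (2.89 to 7.96) for Dlx3. These are higher than with the first filter, and no share of all genes is given for the wider one. The sub-clusters behind this class differ between the libraries. The 114 metformin and 2 control cells led by Pinlyp and Krt79 carried 5 markers of outer root sheath or companion layer and 4 of upper hair follicle. The 20 cells led by Krt75 and Wnt11, all of metformin, also carried 5 markers of outer root sheath or companion layer. The class levels and ratios therefore cover more than stem or germ cells. The 61 cells led by Acta2, Tagln and Spon1 with Fgf5 were all of metformin and held 31 of the 62 Dlx3 UMIs, at 91.6 CPM, and Hoxc13 at 100.5 CPM. The cells led by Rrad, Scube3 and Wnt10b were 2 of metformin and 49 of control, with Hoxc13 at 89.2 CPM in control. In the sub-cluster with the stem cell markers Cd34 and Postn, which both libraries filled, Hoxc13 stood at 49.5 CPM (32.9 to 71.5) in 138 metformin cells and 29.3 (9.50 to 68.3) in 49 control cells.

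In the epidermis, Foxn1 and Dlx3 followed the layers. Foxn1 stood at 1.53 CPM in metformin and 1.30 in control basal epidermis-like cells, a ratio of 1.18 (0.615 to 2.33), and the wider filter gave 3.06 (1.34 to 8.19) from 34 and 7 UMIs. In suprabasal epidermis-like cells, which have begun to differentiate, it stood at 14.1 CPM (10.7 to 18.1) in 470 metformin cells and 11.3 (8.70 to 14.4) in 607 control cells, a ratio of 1.25 (0.861 to 1.80). The wider filter, where this class held 1199 metformin and 1671 control cells, gave 9.85 CPM in metformin and 12.8 in control. The ratio there was 0.769 (0.611 to 0.962), on the other side of 1. In granular epidermis-like cells Foxn1 stood at 7.27 and 11.4 CPM in 122 metformin and 229 control cells. With the wider filter the granular class held only 26 metformin and 128 control cells, so cells were grouped otherwise than before. There Foxn1 had 0 UMIs in metformin and 5 UMIs, 2.68 CPM, in control, a ratio of 0 (0 to 5.77). The part of the new grouping in these changes was not tested. Among whole classes the highest metformin Foxn1 values, 15.8 CPM (7.22 to 29.98) in inner root sheath-like and 14.1 in suprabasal cells, did not differ beyond their intervals. The shaft-led sub-cluster had a higher value, 33.1 CPM (18.5 to 54.6). Its interval overlaps that of the inner root sheath-like class but lies above that of metformin suprabasal cells (10.7 to 18.1). Within the basal class Foxn1 stood at 0.530 CPM in metformin and 0.255 in control cells of the Dlk2-led cluster 0, and at 3.96 and 4.30 in cluster 7, led by Stfa1 and Clca3a2 with Ly6d.

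Dlx3 was low until the granular layer. It stood at 2.19 CPM in metformin and 1.22 in control basal cells and at 1.19 and 0.520 in suprabasal cells. In granular epidermis-like cells it stood at 23.6 CPM (15.4 to 34.6) in 122 metformin cells and 54.0 (44.9 to 64.5) in 229 control cells, a ratio of 0.438 (0.275 to 0.672). At least 2-fold lower levels in this class were found for 5.2% of 7728 genes. The 9 granular markers summed to 2490 CPM in the metformin cells, with the 3 genes Lce1a2, Lce1b and Lce1c at 0, and to 18661 CPM in the control cells, with none at 0. The part of this difference in Dlx3 was not tested. With the wider filter Dlx3 stood at 56.7 CPM in 26 metformin cells and 97.2 in 128 control cells, a ratio of 0.584 (0.348 to 0.929), no longer 2-fold lower. This smaller class was grouped anew, so the change is not one of the filter alone. Dlx2 had 25 UMIs in metformin and 5 in control basal cells, a ratio of 3.36 (1.26 to 11.2), and 1.63% of 11541 genes were at least 2-fold higher there. Msx1, Msx2, Dlx2 and Hoxc13 stood at 8.18 CPM or less in both epidermal layers above the basal cells.

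Upper hair follicle-like cells held little of the 6 genes. Hoxc13 stood at 2.56 CPM in 295 metformin cells and 8.41 in 354 control cells, a ratio of 0.304 (0.0896 to 0.828) from 5 and 21 UMIs. At least 2-fold lower levels were found for 2.82% of 8616 genes. Foxn1 stood at 6.65 and 5.60 CPM in metformin and control. No Msx1 UMI was found in this class in either library.

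In the dermal papilla, the mesenchymal signalling centre of the follicle, Msx2 was the only one of the 6 genes with more than 5 UMIs in either library. It stood at 74.9 CPM (60.6 to 91.5) in 322 metformin cells and 31.3 (20.6 to 45.5) in 350 control cells, from 95 and 27 UMIs. The ratio was 2.39 (1.55 to 3.82), and 13.7% of 9075 genes were at least 2-fold higher in these cells. The wider filter put the ratio just under 2-fold, at 1.96 (1.32 to 2.98). All 12 dermal papilla markers were detected in both libraries, at a sum of 10006 CPM in metformin and 6081 in control. Fibroblast markers summed to 3038 CPM in metformin and 1626 in control, and their part in the result was not tested. Different clusters hold most of the class, cluster 16 with 304 metformin and 86 control cells and cluster 21 with 18 metformin and 264 control cells. In cluster 16 alone Msx2 stood at 76.3 CPM in metformin and 24.5 in control, a ratio of 3.11 (1.45 to 7.95), beside 13.5% of 8207 genes at least 2-fold higher. Median depths were 3910 UMIs in metformin and 2211 in control, and a Msx2 UMI was in 24.5% and 6.86% of cells, where T cell-like cells had 1.02% in metformin and 0.943% in control. At 1500 UMIs per cell the shares were 10.1% of metformin and 6.27% of control cells, and the log2 ratio was 0.61 in place of 1.26.

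Msx1 was also found outside the epithelium, and not only in the classes given here. In vascular smooth muscle or pericyte-like cells it stood at 34.2 CPM (19.9 to 54.7) in 132 metformin cells and 75.6 (52.1 to 106) in 125 control cells, a ratio of 0.452 (0.236 to 0.835), and 3.2% of 5554 genes were at least 2-fold lower. In these cells Msx2 stood at 24.1 CPM in metformin and 25.2 in control, a ratio of 0.957 (0.387 to 2.39). Dermal sheath-like cells held Msx1 at 10.5 CPM in metformin and 8.36 in control, a ratio of 1.25 (0.513 to 3.49). Keratinocyte-like cells held 92.2% of the kept Msx1 UMIs in metformin and 23.7% in control. Of the 118 kept Msx1 UMIs in control, 28 lay in keratinocyte-like and 33 in vascular smooth muscle or pericyte-like cells. Dermal sheath-like control cells held 7, and most of the rest lay in classes not described here.

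Genes with the most similar pattern were ranked by Pearson's r of log2(CPM + 10) over 43 points, each a class or cluster in 1 library with at least 50 cells. These points share their libraries, so r is a description. Hair lineage-like cells enter as metformin points only, since their control classes hold 17 and 1 cells. A high r between genes that are both high in these cells can rest largely on those few points. For Dlx2 the closest genes were its neighbour and relative Dlx1 (0.881) and Shh (0.874). For Dlx3 they were Gjb2 (0.886), E2f2 (0.884), Dlx4os (0.875), Dlx4 (0.871) and Padi3 (0.869). For Msx2 they were Dlx4os (0.860) and Msi1 (0.848), and for Msx1 Nmnat2 (0.873), then Ybx2 (0.767) and Msx2 (0.752). Hoxc13 was closest to Hoxb5os (0.882) and to Lhx2 (0.857), a factor of follicle stem cells. Foxn1 was closest to Muc15 (0.889), Zfp185 (0.889) and Nectin4 (0.886), none of which was among the 5 closest genes of the other 5. Among the 6 genes r was highest between Dlx2 and Hoxc13 (0.809) and lowest between Msx1 and Foxn1 (0.158).

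None of the 19 listed relatives of the 6 genes was above the 5 homeobox genes in the hair lineage-like metformin cells, and 9 were at 0. The highest relative, Foxn3 at 84.8 CPM, lay inside the interval of Dlx2, the lowest of the 5 at 85.2 CPM. Dlx4 stood at 44.4 CPM, Dlx1 at 24.6, Hoxc8 at 22.1, Hoxc6 at 12.0 and Dlx5 at 4.83. Foxn3 (84.8 CPM) and Foxn2 (30.2 CPM) were higher in metformin T cell-like cells, at 125 and 50.8 CPM. Of 8 measured relatives in all keratinocyte-like cells, 3 were at least 2-fold higher in metformin, beside 8.93% of all genes. These were Dlx4 with a ratio of 38.1 (17.3 to 104.5), Dlx1 with 12.8 (6.79 to 27.1) and Hoxc9 with 4.44 (1.72 to 14.6). Dlx5 went the other way, at 9.08 CPM in metformin and 15.8 in control, a ratio of 0.575 (0.496 to 0.668).

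Of 24 measured regulators of the matrix, 5 were at least 2-fold higher in the metformin keratinocyte-like cells, beside 8.93% of all genes. Of these regulators 1 was at least 2-fold lower, beside 3.38% of all genes, and their median log2 ratio was 0.36. Without the hair lineage-like cells, 0 of 23 were at least 2-fold higher, beside 3.6% of all genes. There 2 were at least 2-fold lower, beside 3.22% of all genes, and the median was 0.04. In the hair lineage-like metformin cells the most abundant were Id3, a target of BMP signals, at 2201 CPM, Cux1 at 348, the Notch ligand Jag1 at 248, Lef1, a nuclear partner of Wnt signals, at 197, Notch1 at 159 and Gata3, a factor of the inner root sheath, at 139. Id3 and Gata3 also stood at 211 and 114 CPM in T cell-like cells. The Lef1 ratio in keratinocyte-like cells was 17.2 (13.2 to 23.0). Of 12 measured hair keratin and shaft genes, 11 were at least 2-fold higher, beside 8.93% of all genes. Their median was 3.67, beside a median of 3.30 for the 6 genes. Krt35 stood at 452 CPM and S100a3 at 302 in the hair lineage-like metformin cells, followed by Selenbp1 at 83.3, Padi3 at 27.8, Krt31 at 23.4 and Crym at 17.3. Krt31 was found in 0.221% of these cells. Krt35, S100a3, Krt31, Padi3, Lef1, Cux1 and Gata3 were also markers used to name clusters. Their high levels in hair lineage-like cells are therefore not independent of that name. All 15 cell division genes were at least 2-fold higher in metformin keratinocyte-like cells, beside 8.93% of all genes, with a median of 1.52. Without the hair lineage-like cells 8 of the 15 were, beside 3.6% of all genes, with a median of 1.04. Birc5 stood at 160 CPM, Mki67 at 155, Top2a at 120, Ube2c at 108, Ccnb2 at 76.2 and Cenpf at 63.4 in the hair lineage-like metformin cells.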

How the data were processed

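The authors deposited UMI counts per gene and barcode from 3′ single-cell sequencing of skin. The matrix headers name Cell Ranger 4.0.0 and the submitters' processing notes mouse build GRCm38. The article linked to the series describes another skin experiment, so groups come from the labels alone. A cell was kept if it had 800 UMIs or more, between 300 and 3000 genes and no more than 8% of mitochondrial counts, and Scrublet doublets (287 metformin, 234 control) were removed. The wider filter had no gene limit and allowed 20%. Shares of all genes at or beyond a fold are given for the first filter only, so ratios under the wider one are values without that share. Counts were scaled to 10000 per cell, and 30 principal components of 2000 variable genes, without the 6 genes, were clustered by Leiden (leidenalg 0.10.2, resolution 1, scanpy 1.11.5, Python 3.11.15) into 33 clusters. Clusters were named from markers of 27 types, at least 3 of which had a fold of 1.5 in 10% of cells. Cluster 6, which passed for neither name alone, was kept as a joint class. None of the 6 genes was a marker. Rebuilt names may differ from those of the submitters.

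Deposited counts were summed per class and library. CPM carries exact Poisson intervals, shares exact Clopper-Pearson intervals and ratios exact conditional binomial intervals, all at 95%. The ratio intervals were tried on simulated Poisson counts. These counts hold counting error alone, so the trial does not bear on spread between cells, mice or libraries. Ratios over all genes used genes with at least 20 UMIs in both libraries together, with a count of 0 set to 3. Single genes named beside the 6 are the 5 closest in pattern (100 UMIs or more), the 6 most abundant of each list in hair lineage-like metformin cells, and relatives with at least 20 UMIs there. Leading genes of sub-clusters, and Dlx5, Hoxc9 and Krt31 for their values, were named after their values were seen. 1 symbol of the gene lists was not matched. The 6 genes and the lists were chosen with earlier results of these data known. Promoters are from RefSeq on GRCm38.p6.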

Additional observations from a re-analysis of the deposited data

Results flagged for a closer look

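Library ratios of 3 genes pointed in opposite directions in 2 cell classes, each with an interval that excludes 1. Msx1 had a ratio of CPM, metformin over control, of 4.83 in hair lineage-like cells and 0.452 in vascular smooth muscle or pericyte-like cells. With the wider filter on cells these were 1.96 and 0.473. Dlx3 had a ratio of 2.64 in hair follicle stem or germ-like cells and 0.438 in granular epidermis-like cells, and 4.65 and 0.584 with the wider filter. Hoxc13 had a ratio of 2.78 in hair lineage-like cells and 0.304 in upper hair follicle-like cells, and 3.54 and 0.272 with the wider filter. The differences between classes were not tested, since each agent has 1 library.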

How the results depend on the processing

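No paired analysis was possible because each agent has 1 library. Of 54 alternatives for the log2 ratios in keratinocyte-like cells, 43 gave a value inside the counting interval. These include a resolution of 2 and the clusterings that allowed or added the 6 genes, described below. For every gene these returned the reported ratio unchanged, so they are no check on the ratios in keratinocyte-like cells. Without hair lineage-like cells the log2 ratio was 0.77 for Msx1, 0.35 for Msx2, 1.96 for Dlx2 and 0.48 for Hoxc13, and it turned to -0.375 for Dlx3. The wider filter gave 3.86 for Msx2 and -0.68 for Foxn1, a mean over cells gave 3.13 for Msx2, 3.46 for Dlx2 and 2.495 for Hoxc13, and thinning to 1500 UMIs gave 2.97 for Msx2. Foxn1 was -0.17 as reported and 0.10 as a mean over cells. In dermal papilla-like cells thinning gave 0.61 for Msx2, and the other alternatives, with cluster 16 alone added after seeing the data, stayed inside the interval. The share of hair lineage-like metformin cells with a UMI was 56.2%, 76.4%, 48.4%, 80.9% and 47.0% for Msx1, Msx2, Dlx2, Dlx3 and Hoxc13 under the wider filter, and 16.8%, 31.1%, 10.4%, 29.8%, 19.3% and 0.896% for Msx1, Msx2, Dlx2, Dlx3, Hoxc13 and Foxn1 after thinning, which removes UMIs by construction. A resolution of 2 and keeping doublets moved none of these values outside its interval. Letting the 6 genes compete for the variable genes brought in only 1 of them, so a clustering with all 6 added was run after seeing the data, and neither moved a value outside its interval. The causes were not tested otherwise. Counts of under 10 UMIs in a library limit several ratios. These include Msx1, Dlx2, Hoxc13 and Foxn1 in hair lineage-like cells, Hoxc13 in upper follicle cells and Dlx3 in stem or germ-like cells. They also include Dlx2 in basal cells, Foxn1 in basal cells with the wider filter, and Msx2 in cluster 16 alone.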
